A study of Bienertia sinuspersici with 9 samples.

Results

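In leaves of Bienertia sinuspersici, 109 unigenes fell in both steps of development, between young and intermediate leaves and again between intermediate and mature leaves. They were chosen from these same values by a fixed rule. The intermediate mean was at most 0.67 times the young mean, the mature mean was at most 0.5 times the intermediate mean, and the young mean was at least 20 TPMTMM. In addition, every intermediate library had to lie below every young library and every mature library below every intermediate library. Of 11709 unigenes in the table, 5011 had a young mean of at least 20 TPMTMM. The limit on the intermediate leaves left 175 of these, the limit on the mature leaves 331 of these, and both limits together 112. Separation of the libraries removed 3, which left the 109 members. Because the rule used all 9 libraries, the falls of the members are a description, and no test of them is independent of the choice.

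Bienertia is a succulent plant that runs C4 photosynthesis within single leaf cells. Transcripts were sequenced from young, intermediate and mature leaves of wild type plants, with 3 libraries per stage. The paper classed the stages by chloroplast type and shape and by how far the central vacuole had developed, and lists leaf lengths for each. The plants had been moved from sterile culture to soil in a greenhouse, and of the mature leaves only the tip was taken. Stage and leaf part can therefore not be told apart in mature samples. The samples are called biological replicates, and no source used here gives the number of plants behind each, so that any p-value measures the spread between these libraries. A unigene is a transcript assembled from the reads without a genome. TPM is a transcript's share of a library, corrected for its length, with an equal sum for every library. TPMTMM was found to be the rounded TPM, raised by 1 and multiplied by a factor of the library from the TMM method, which scales libraries to one another. Read counts of single unigenes were not among the values, and the number of reads behind a value is unknown. The paper lists the reads of each library, with more in every young library than in any intermediate or mature library.

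In a growing leaf, cells first divide and then expand and differentiate. In Bienertia, the chlorenchyma cells form a peripheral and a central cytoplasmic compartment in this period, each with its own type of chloroplast, and together these carry out the C4 cycle. Whether transcripts that are abundant in young and scarce in mature leaves belong to the earlier part of this course was not tested. In bulk leaf RNA, fewer cells of a type and less RNA per cell cannot be told apart.

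The labelled stages were compared through marker genes named by their best Arabidopsis match. All 6 chlorenchyma markers were higher in mature than in young leaves in limma's moderated test, among them PPDK, which regenerates the CO2 acceptor of the C4 cycle, with 7031 ± 145 TPMTMM in mature and 1183 ± 82.6 TPMTMM in young leaves (SD, n = 3). The paper had listed PPDK, PEPC1, NAD-ME2 and CAb1, which are among these markers, with genes upregulated at the mature stage in the same libraries. Their rise is therefore no independent check of the stages. The 5 markers of dividing cells (HTR12, TPX2, KINUB, BARD1 and CTF18), chosen with earlier results known, were lower in mature leaves. They are the 5 called lower among 8 listed genes of cell division and of DNA replication or repair, so their count is no check of the stages. Of the markers of epidermis and cuticle, KCS1 was lower and SBT1.2 higher in mature leaves, and KCS2 and GPAT4 did not pass the test. The pollen marker PGA3 averaged 1.26 ± 0.0421 TPMTMM in mature and 2.56 ± 0.807 TPMTMM in young leaves. Its TPM rounded to 0 in every mature library, so the mature SD is only the spread of the library factors. The root marker FRO2 averaged 10.9 ± 0.951 TPMTMM in mature and 2.57 ± 0.0513 TPMTMM in young leaves. Calls required an adjusted p (Benjamini-Hochberg) under 0.05 over 11709 unigenes. The part of changing cell types in the falls of the members was not tested.

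The 109 members lay in 109 different components of the assembly, so that no 2 of them were isoforms or neighbours of the same sequence cluster. Together they made up 1.32%, 1.40% and 1.52% of all TPM in the young libraries, 0.761%, 0.729% and 0.588% in the intermediate libraries, and 0.123%, 0.173% and 0.147% in the mature libraries. The 3 stages did not overlap, which the rule had set in advance by separating the libraries of every member. The 5 most abundant members held 51.3 to 58.0% of the members' TPM in mature leaves and 40.04 to 43.9% in young leaves.

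**Figure D1:**
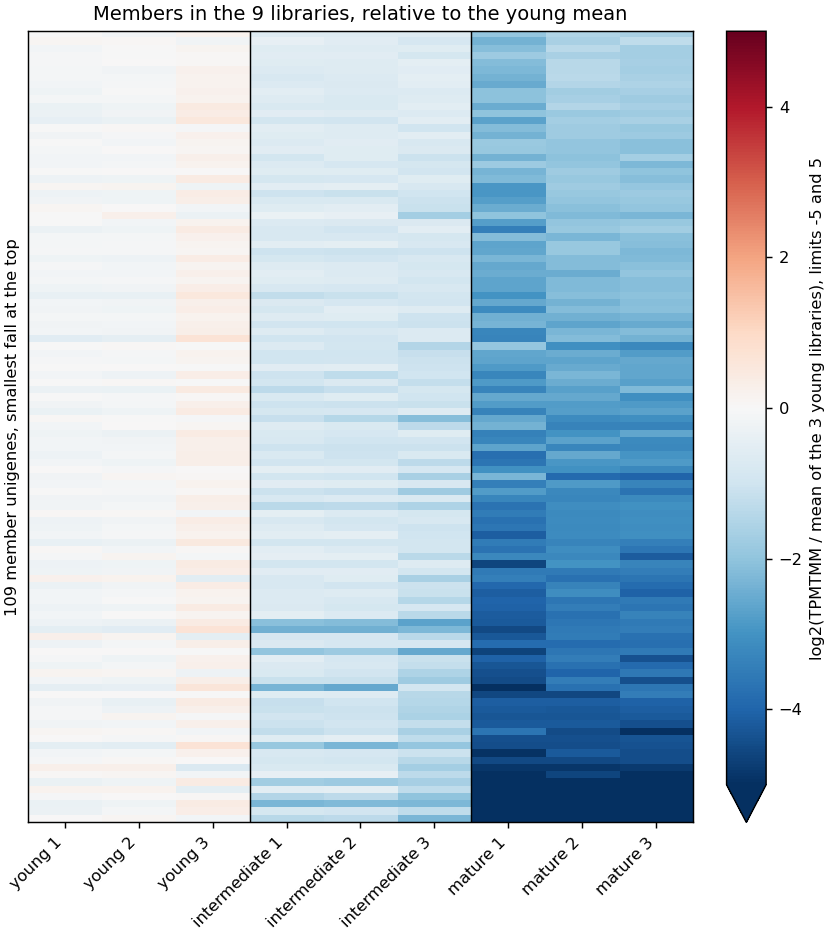
Each row is 1 of the 109 members and each column 1 of the 9 libraries, with colour giving log2 of the TPMTMM value over the mean of the 3 young libraries, cut at 5 on either side. Members are ordered from the smallest young over mature fold (3.19) at the top to the largest (531) at the bottom, and young 3 is redder than young 1 and young 2 in most rows.

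The members spanned a wide range of levels. Young means ran between 20.6 and 1527 TPMTMM with a median of 56.3 TPMTMM. They reached at least 500 TPMTMM in 5 members, lay between 100 and 500 in 17, between 50 and 100 in 36 and between 20 and 50 in 51. The median of the stage means was 56.3 TPMTMM in young, 28.2 TPMTMM in intermediate and 5.87 TPMTMM in mature leaves. The ratio of the intermediate to the young mean ran between 0.196 and 0.668 (median 0.565), and the ratio of the mature to the intermediate mean between 0.00573 and 0.489 (median 0.279). Over both steps the young mean was 3.19 to 531 times the mature mean, with a median of 7.69. It was at least 10 times the mature mean in 40 members and less than 5 times in 36.

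The smallest fall that the rule allows is deeper in the later step than in the earlier one. The choice of members thus favours a larger later step, and the count that follows is a description only. On the log2 scale the later step was the larger one in 105 members. The other 4, named after their values were seen, were BS13221_c2_g3_i1, BS116006_c0_g1_i1, BS1389_c1_g2_i1 and BS115410_c0_g1_i1. BS1389_c1_g2_i1 was the most abundant of these, with 153, 152 and 148 TPMTMM in the young libraries, 38.2, 42.7 and 25.97 TPMTMM in the intermediate libraries and 6.17, 12.3 and 13.1 TPMTMM in the mature libraries. The log2 ratio of its means was -2.09 for intermediate over young and -1.76 for mature over intermediate leaves. On the linear scale, the intermediate mean had covered a median of 52.2% of the fall between the young and the mature mean (range 38.0 to 86.8%), and more than 50% of it in 68 members. The limits of the rule bound these shares from below.

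**Figure D2:**
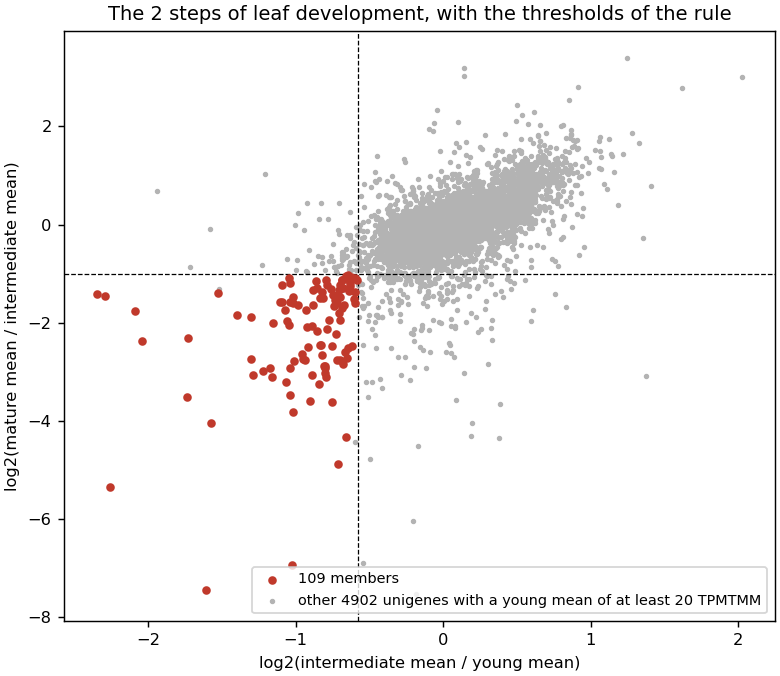
Points are the 5011 unigenes with a young mean of at least 20 TPMTMM, with log2 of the intermediate over the young mean on the horizontal axis and log2 of the mature over the intermediate mean on the vertical axis. The 109 members fill the corner below both dashed limits (0.67 and 0.5), where the rule places them, and 3 of the 112 unigenes within the limits were left out because their libraries overlapped.

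SPL8 (BS13176_c1_g2_i3) was the only member with a name in the sources used here. In Arabidopsis, SPL8 is a transcription factor with an SBP-box, a DNA-binding domain of plants, and is known for its part in the development of anthers and in fertility. It had 54.0, 58.9 and 57.8 TPMTMM in young leaves, 31.1, 30.01 and 21.98 TPMTMM in intermediate leaves and 2.47, 2.46 and 2.61 TPMTMM in mature leaves. The 3 stages were well apart, and the mature libraries differed only by the library factor, since each had a rounded TPM of 1. The stage means were 56.9 ± 2.57, 27.7 ± 4.98 and 2.51 ± 0.0842 TPMTMM (SD, n = 3), and the young mean was 22.6 times the mature mean. The 3 other isoforms of the same assembled gene summed to 9.04 in the young, 3.44 in the intermediate and 0.0781 in the mature stage, in TPM times the library factor. The named isoform held 86.1% of the gene in the young, 88.6% in the intermediate and 94.4% in the mature stage.

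The other 14 regulators of development and growth with a name were no members. In mature against young leaves 2 of the 14 were lower (ERF023 and AN), 3 were higher (MGP, LHY and HMGB15) and 9 did not pass the test, where 23.9% of all unigenes tested were called lower and 24.2% higher. Without scaling between libraries, which lowered the median unigene by 0.57 on the log2 scale, 7 of the 14 were called lower and 2 higher, where 6663 of all 11709 unigenes were called lower and 1297 higher. The median log2 difference of the whole list, SPL8 included, in the scaled values was -0.02, and that of all unigenes tested was also -0.02. ERF023, a transcription factor of the AP2/ERF family, had 7.40, 12.3 and 6.53 TPMTMM in mature and 23.1, 25.2 and 19.3 TPMTMM in young leaves, without overlap. Its course differed from that of SPL8, with 31.98, 35.5 and 34.96 TPMTMM in intermediate leaves, above all young libraries. AN (ANGUSTIFOLIA), known for its part in leaf cell shape, averaged 15.5 ± 1.75 TPMTMM in mature, against 39.0 ± 8.72 TPMTMM in young leaves. LHY, a MYB transcription factor of the circadian clock, had 18.5, 92.3 and 82.2 TPMTMM in mature and 8.57, 7.57 and 14.9 TPMTMM in young leaves, and mature 1 was far below the other mature libraries. HMGB15, a DNA-binding protein with an HMG box, was low throughout (at most 7.39 TPMTMM). MGP (MAGPIE), a zinc finger protein, lost its call without scaling between libraries (log2 difference -0.00) and without young 1, young 2 or mature 2 (limma adjusted p between 0.0788 and 0.0885).

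Among 8 listed genes of cell division and of DNA replication or repair, 5 were lower in mature than in young leaves and none was higher, beside 23.9% lower and 24.2% higher among all unigenes. Without scaling between libraries, all 8 were called lower, where 6663 of all 11709 unigenes were called lower and 1297 higher. The 5 were HTR12 (the histone H3 of centromeres), TPX2 (spindle assembly), the kinesin KINUB, BARD1 (DNA repair) and CTF18 (cohesion of sister chromatids). The median log2 difference over the 8 was -0.78. BARD1 was the only one of these also called lower between young and intermediate leaves. It had 15.4, 15.98 and 21.01 TPMTMM in young, 9.77, 9.09 and 10.99 TPMTMM in intermediate and 3.70, 4.92 and 3.92 TPMTMM in mature leaves. Its course was thus like that of the members, with no overlap between stages, and its young mean of 17.5 ± 3.08 TPMTMM was below the 20 that the rule asks for. The call of BARD1 in the first step was lost in each of the 6 fits that left out a young or an intermediate library (limma adjusted p between 0.0659 and 0.0970). In these fits, lower calls over all unigenes also dropped, from 323 to between 53 and 129.

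Other lists held few genes, to be read against the same 23.9% lower and 24.2% higher among all unigenes. Of 5 genes of the cuticle and epidermis, KCS1 and GPAT2 were lower in mature than in young leaves and SBT1.2 was higher. Of 9 cell wall genes, CEL2, CSLD5 and PGA3 were lower and none was higher. Each of these 3 had 1.23, 1.23 and 1.31 TPMTMM in the mature libraries, where the TPM rounds to 0. With a mean of at least 10 TPMTMM required, 4 cell wall genes were left and none was called lower. Of 4 proteases, APF2 and SBTI1.1 were lower and CATHB2 was higher. Several of these calls were lost when a single library was left out. In limma, PGA3 lost its call without young 1 or young 2 (adjusted p = 0.0503 and 0.0578), SBTI1.1 without young 3 (0.0522), CATHB2 without young 3 (0.0800) and SBT1.2 without any 1 of the young libraries, mature 1 or mature 2 (0.0660 to 0.105). Without scaling between libraries, CATHB2 and SBT1.2 were no longer called. In that setting 4 of the 5 cuticle and epidermis genes, 6 of the 9 cell wall genes and 3 of the 4 proteases were called lower. These counts stand beside 6663 of all 11709 unigenes called lower and 1297 higher without scaling. None of the genes of these lists was a member. CER1 (BS14365_c1_g1_i1), an enzyme of wax alkane synthesis that the rule leaves out by name, would not have met it, since its intermediate libraries had 45.3, 45.5 and 12.99 TPMTMM and its young libraries 38.6, 37.01 and 21.9 TPMTMM.

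The most abundant member, BS2968_c0_g1_i1, had 1474, 1528 and 1579 TPMTMM in young, 1008, 972 and 1080 TPMTMM in intermediate and 337, 581 and 488 TPMTMM in mature leaves. The libraries of each stage lay close together except for mature 1, which was lowest. Its ratio of the intermediate to the young mean, 0.668, was the nearest to the limit of all members. BS26551_c0_g1_i3 followed the same course, with 929, 977 and 1163 TPMTMM in young, 634, 612 and 704 TPMTMM in intermediate and 180, 366 and 355 TPMTMM in mature leaves. BS1083_c1_g1_i8 had 524, 567 and 638 TPMTMM in young, 378, 369 and 377 TPMTMM in intermediate and 131, 224 and 179 TPMTMM in mature leaves. In all 3 unigenes mature 1 was the lowest library and the young mean was 3.24 to 3.41 times the mature mean, which put them among the members with the smallest falls.

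BS20649_c0_g1_i2 was second in level and had the largest fold of all members in TPMTMM. In TPM without rounding and the added 1, its fold of 1598 was below those of BS6730_c3_g1_i1 (1843) and BS2475_c0_g1_i1 (2032), whose mature libraries had at most 0.25 TPM and 0.08 TPM. Its values were 1363, 1410 and 1228 TPMTMM in young, 506, 539 and 271 TPMTMM in intermediate and 1.23, 3.69 and 2.61 TPMTMM in mature leaves. The transcript was thus among the most abundant members in young leaves and close to the lowest value of the table in mature leaves, and its young mean was 531 times its mature mean. Intermediate 3 was well below the other intermediate libraries.

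BS63017_c1_g1_i1 and BS4354_c0_g1_i2 had the opposite order of mature libraries. BS63017_c1_g1_i1 had 618, 692 and 727 TPMTMM in young, 429, 400 and 274 TPMTMM in intermediate and 132, 66.5 and 66.6 TPMTMM in mature leaves. BS4354_c0_g1_i2 had 354, 423 and 421 TPMTMM in young, 211, 200 and 129 TPMTMM in intermediate and 82.7, 27.1 and 24.8 TPMTMM in mature leaves. In both, mature 1 was the highest mature library and intermediate 3 the lowest intermediate library. BS65_c2_g1_i1 had 265, 270 and 349 TPMTMM in young, 146, 140 and 140 TPMTMM in intermediate and 46.9, 30.8 and 31.3 TPMTMM in mature leaves, with young 3 highest and mature 1 highest.

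The remaining members of the 10 highest were marked by a high young 3. BS1500_c0_g1_i1 had 150, 161 and 277 TPMTMM in young, 105, 103 and 105 TPMTMM in intermediate and 17.3, 19.7 and 18.3 TPMTMM in mature leaves. BS2931_c0_g1_i10 had 252, 287 and 391 TPMTMM in young, 170, 162 and 127 TPMTMM in intermediate and 1.23, 1.23 and 1.31 TPMTMM in mature leaves. BS6730_c3_g1_i1 had 195, 209 and 328 TPMTMM in young, 49.8, 52.7 and 50.9 TPMTMM in intermediate and the same 1.23, 1.23 and 1.31 TPMTMM in mature leaves. In the last pair the mature values are the lowest that the table can hold, because 1 was added to a TPM rounded to 0. Before rounding, BS2931_c0_g1_i10 had 0.09, 0.38 and 0.42 TPM in the mature libraries and BS6730_c3_g1_i1 had 0.07, 0.14 and 0.25 TPM. Their folds, 247 and 194, depend on the added 1 and understate the fall in TPM.

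**Figure D3:**
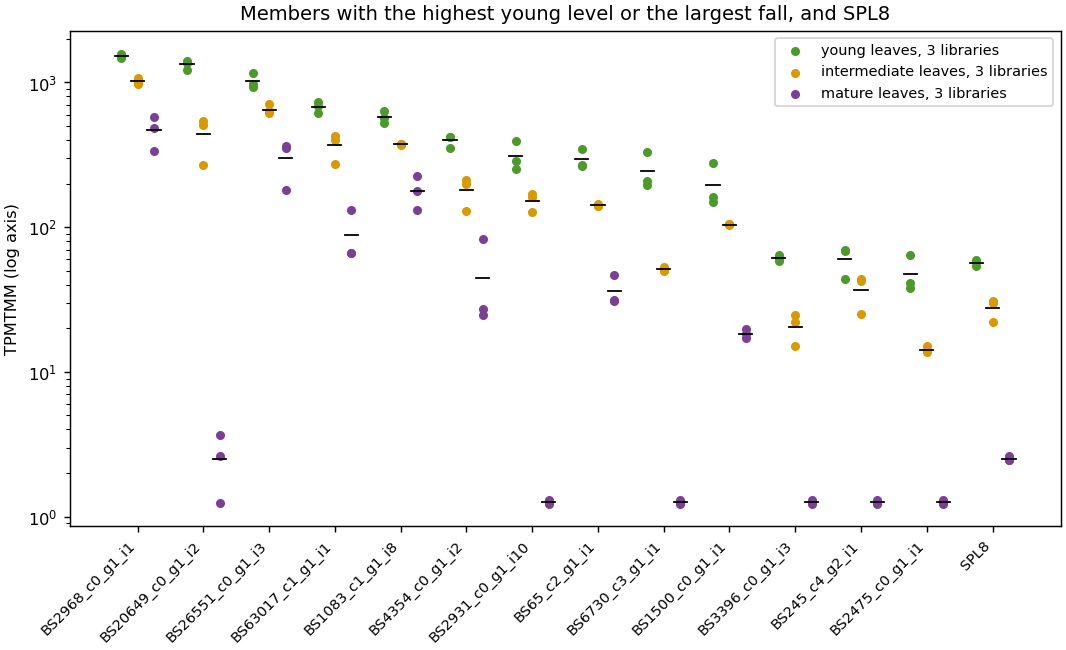
Points are the TPMTMM values of single libraries on a log axis, with a bar at the mean of each stage (n = 3), for the 10 members with the highest young mean, the members with the 6 largest folds and SPL8. In each of them the 3 stages are apart, as the rule requires. Of these members, 5 sit at the lowest possible value (1.23 to 1.31) in all mature libraries.

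This lowest value was reached in all 3 mature libraries by 10 members and in at least 1 by 18. Of the 6 largest folds, the other 3 belonged to less abundant unigenes of this kind. BS3396_c0_g1_i3 had 58.3, 61.4 and 63.9 TPMTMM in young, 22.2, 24.6 and 14.99 TPMTMM in intermediate and 1.23, 1.23 and 1.31 TPMTMM in mature leaves. BS2475_c0_g1_i1 had 37.7, 41.2 and 63.9 TPMTMM in young, 14.2, 13.6 and 14.99 TPMTMM in intermediate and 1.23, 1.23 and 1.31 TPMTMM in mature leaves. It had thus covered 71.9% of its fall at the intermediate stage. BS245_c4_g2_i1 had 69.4, 69.0 and 43.8 TPMTMM in young, 42.6, 43.6 and 24.97 TPMTMM in intermediate and again 1.23, 1.23 and 1.31 TPMTMM in mature leaves, with the third library lowest in the young and the intermediate stage. BS2857_c0_g1_i6 was the only member listed at 0 TPM in every mature library, and no fold is given for it.

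Members close to the limits had modest falls. BS19053_c0_g1_i2, next to the limit of the first step (ratio 0.662), had 40.3, 39.5 and 33.3 TPMTMM in young, 28.4, 25.5 and 20.98 TPMTMM in intermediate and 7.40, 12.3 and 15.7 TPMTMM in mature leaves. Just outside were BS2283_c0_g1_i1 (0.6702) and BS12439_c4_g1_i2 (0.673). Next to the limit of the later step, BS5352_c0_g1_i1 (0.489) had 27.4, 25.2 and 31.5 TPMTMM in young, 17.8, 18.2 and 17.98 TPMTMM in intermediate and 7.40, 9.85 and 9.14 TPMTMM in mature leaves. BS104925_c0_g1_i1 (0.484) had 155, 163 and 172 TPMTMM in young, 112, 112 and 87.9 TPMTMM in intermediate and 46.9, 52.9 and 50.9 TPMTMM in mature leaves. Just outside were BS1340_c0_g1_i7 (0.505) and BS6435_c0_g1_i1 (0.514), and BS1340_c0_g1_i7 had a young mean of 650 TPMTMM.

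Of the members with the lowest young mean, BS186_c1_g1_i1 had 17.995, 20.2 and 23.6 TPMTMM in young, 14.2, 12.7 and 12.99 TPMTMM in intermediate and 4.93, 6.15 and 6.53 TPMTMM in mature leaves. BS4346_c0_g1_i30 had 18.9, 18.5 and 24.5 TPMTMM in young, 14.2, 12.7 and 11.99 TPMTMM in intermediate and 3.70, 3.69 and 5.22 TPMTMM in mature leaves. Both had a young mean of 20.6 TPMTMM, and BS1233_c0_g1_i2 and BS94552_c0_g1_i1 missed the limit with 19.8 TPMTMM each. The unigenes that met every limit on the means but had overlapping libraries were BS12562_c0_g1_i3, BS55338_c0_g1_i1 and BS10513_c1_g1_i4. In BS55338_c0_g1_i1 the intermediate libraries had 100, 102 and 35.96 TPMTMM and the young libraries 289, 315 and 78.8 TPMTMM, so that young 3 lay below intermediate 1 and intermediate 2. Young 3 was likewise the lowest young library in the other 2.

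The order of the libraries within a stage was also compared. The rule did not name an order but used the same values through the stage means and the separation of the libraries, so that the choice can set part of it. Young 3 was the highest young library in 83 of the 109 members (76.1%), compared with 41.1% of the 5011 unigenes with a young mean of at least 20 TPMTMM. Mature 1 was the lowest mature library in 68 members (62.4%), compared with 38.0% of the 5011. Intermediate 3 was the lowest intermediate library in 71 members (65.1%), compared with 38.0% of the 5011. The members are included in the 5011, and members are not independent of one another, so these shares are given without a test.

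The sizes of these shifts were moderate. The median ratio of young 3 to the mean of young 1 and young 2 was 1.23 in the members and 0.984 in the 5011. For mature 1 against mature 2 and mature 3 the median ratio was 0.780 in the members and 1.01 in the 5011, and for intermediate 3 against intermediate 1 and intermediate 2 it was 0.861 in the members and 1.02 in the 5011. Young 3 exceeded the mean of the other young libraries at least 1.5 times in 24 members and was under 0.8 times that mean in 7. In 56 members young 3 was the highest young and mature 1 the lowest mature library, and in 5 members both were the other way round. Young 1 and young 2 differed by a median of 0.0587 in the members on the log2 scale, against 0.363 between young 1 and young 3. No batch, harvest time or plant is labelled for these libraries, and its part in the shifts was not tested.

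**Figure D4:**
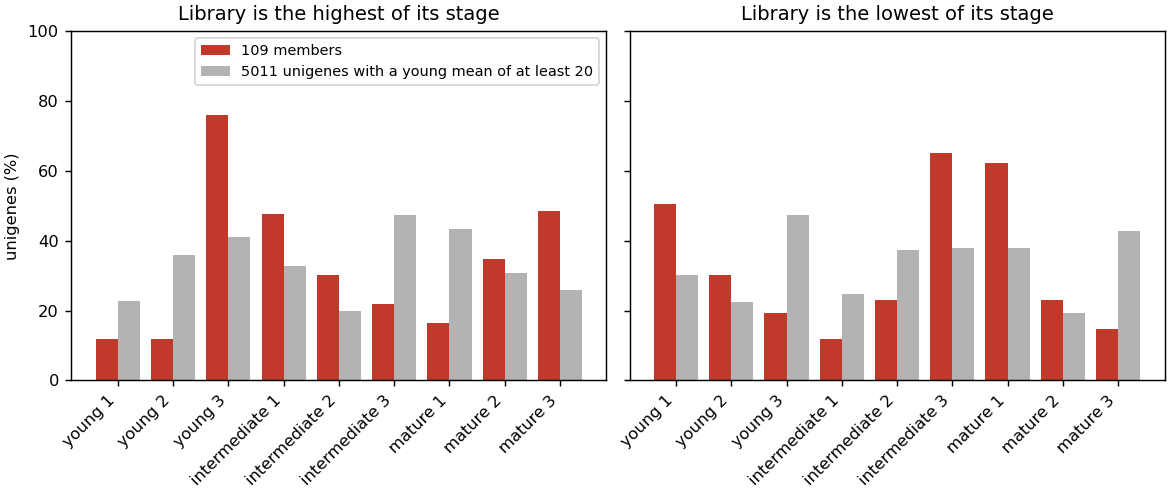
Bars give the percentage of unigenes in which a library was the highest (left) or the lowest (right) of the 3 libraries of its stage, for the 109 members (red) and for all 5011 unigenes with a young mean of at least 20 TPMTMM (grey). Young 3 was the highest in 76.1% of the members, intermediate 3 the lowest in 65.1% and mature 1 the lowest in 62.4%.

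Leaving out single libraries showed how many members rest on them. Without young 3, 87 unigenes met the rule, of which 76 were members. Without intermediate 3 it was 96 with 90 members, and without mature 1 it was 99 with 97 members. Each of the other 6 libraries could be left out with at least 105 of the 109 members retained. All 109 also met the rule in the TPM values without scaling between libraries, where 221 unigenes met it. This was close to set in advance, because the library factors rise with the stage. They were 0.841 to 0.875 in young, 0.888 to 0.999 in intermediate and 1.23 to 1.31 in mature libraries, so that dropping them deepens both falls.

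In limma's test across all 11709 unigenes, 63 of the 109 members were called lower in intermediate than in young leaves, where 2.76% of all unigenes were called lower. For mature against intermediate leaves all 109 were called lower (15.9% of all unigenes), and for mature against young leaves likewise all 109 (23.9% of all unigenes). The rule was built on these contrasts and libraries, so the choice of members sets these shares and nothing is read from them. With 1 of the young or intermediate libraries left out, the first count was 16 to 34 of the 109, and without mature 1, which enters only through the estimate of the spread, it was 95. The 46 members without a call in the first step met the limit of 0.67 and the separation of the libraries all the same.

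The assembly offers unigenes related to the members that the rule did not choose. A component of the assembly is a cluster of overlapping sequences, split into assembled genes, which in turn are split into isoforms. In the table of all 36907 unigenes, 60 members stood alone in their component, and 49 shared it with a total of 131 other unigenes. Of these, 65 were isoforms of the same assembled gene as a member and 66 belonged to another assembled gene of the component. Reads that fit several isoforms are shared out among them in the quantification, so that isoforms and members are not independent measurements.

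Among all 36907 unigenes, a table added after seeing the data, most isoforms of the members' genes were lower in mature leaves as well. In a limma fit of all 36907 unigenes (TPM times the library factor), 51 of 65 were called lower in mature than in young leaves and 2 were called higher, where 16.8% of all unigenes were called lower and 13.2% higher. The median log2 difference was -1.54 for the 65 isoforms and -0.11 for all unigenes. Leaving out any 1 library gave 46 to 50 lower calls. Of the 66 unigenes of other assembled genes, 21 were called lower and 6 higher, with a median log2 difference of -0.33. This count was the less stable one, with 11 lower calls without young 1 and also without young 2, and 36 without scaling between libraries. In the smaller TPMTMM table, 29 of the related unigenes were present, and 7 were called lower and 5 higher in mature than in young leaves, that is 24.1% lower and 17.2% higher, where 23.9% of all unigenes were called lower and 24.2% higher. The lower share was thus near the background. Of the 29, 6 were isoforms of a member's gene. Only BS32235_c0_g1_i4 among these was called lower, and the others did not pass the test.

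Related unigenes of other assembled genes went in either direction. BS2176_c0_g1_i1, a neighbour of the member BS2176_c0_g3_i1, averaged 1.67 ± 0.693 TPMTMM in mature against 17.5 ± 2.32 TPMTMM in young leaves (log2 difference -2.81 ± 0.20 SE). BS516_c1_g2_i1, a neighbour of the member BS516_c1_g3_i1, averaged 375 ± 19.6 TPMTMM in mature against 195 ± 18.05 TPMTMM in young leaves (0.94 ± 0.10 SE), with no overlap of libraries. BS267_c0_g1_i19 and BS267_c0_g1_i14, both neighbours of the member BS267_c0_g2_i7, were called in opposite directions, with 105 ± 9.09 and 2.10 ± 0.756 TPMTMM in mature against 63.6 ± 8.90 and 8.02 ± 1.47 TPMTMM in young leaves. BS245_c4_g1_i1, next to the member BS245_c4_g2_i1, had 20.1, 14.1 and 15.9 in mature and 20.6, 17.1 and 17.8 in young leaves (TPM times the library factor). Its libraries overlapped and the difference did not pass the test (log2 difference -0.15 ± 0.16 SE, limma adjusted p = 0.538), while the member itself was at the lowest value in all mature libraries.

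Further isoforms of the assembled gene were present for 35 members. Summed over the isoforms, all 35 genes had separate young and mature libraries, with the sum at least 2-fold lower in mature leaves in 33, 1.53-fold lower in 1 and listed at 0 in mature leaves in 1. Of all 3718 assembled genes with 2 or more unigenes and a summed young mean of at least 20, 8.45% had a sum at least 2-fold lower in mature leaves. The member is part of the sum, so that its fall was built in. The member held a median of 86.1% of its gene in the young, 86.6% in the intermediate and 85.8% in the mature stage. In 20 of the 34 genes with a mature value, the share in mature leaves was within 10 percentage points of that in young leaves. In BS2968_c0_g1, the gene of the most abundant member, the member held 29.3% in the young, 29.4% in the intermediate and 26.99% in the mature stage, and the 3 other isoforms were each called lower in mature than in young leaves as well.

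In 4 genes, picked after their values were seen, the member's share was far lower in mature leaves. BS1176_c0_g1_i13 held 28.1% of its gene in the young, 18.7% in the intermediate and 1.07% in the mature stage. The member had 19.7, 20.2 and 24.5 TPMTMM in young, 13.3, 13.6 and 9.99 TPMTMM in intermediate and 1.23, 2.46 and 1.31 TPMTMM in mature leaves. The other isoforms of the gene summed to 47.3 in mature and 52.7 in young leaves (TPM times the library factor), so that the sum of the gene was only 1.53-fold lower. The most abundant of them, BS1176_c0_g1_i14, had 42.2, 30.6 and 29.8 in mature and 35.5, 35.2 and 38.2 in young leaves, which overlapped (log2 difference -0.10 ± 0.14 SE, limma adjusted p = 0.644).

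BS9139_c2_g1_i1 held 99.4% of its gene in the young, 99.05% in the intermediate and 19.6% in the mature stage. It had 117, 113 and 98.9 TPMTMM in young, 47.1, 51.8 and 35.96 TPMTMM in intermediate and 8.64, 4.92 and 2.61 TPMTMM in mature leaves. The other 2 isoforms of the gene were the ones called higher in mature leaves. BS9139_c2_g1_i5 had 6.95, 8.65 and 10.7 in mature and 0.600, 0.311 and 0.438 in young leaves, and BS9139_c2_g1_i17 had 6.65, 9.65 and 12.9 in mature and 0.103, 0.0505 and 0.376 in young leaves (TPM times the library factor). Among the mature libraries, mature 1 was highest for the member and lowest for both isoforms, and mature 3 the reverse. In intermediate leaves the isoforms were no higher than in young leaves (0.424 for their sum, against 0.626 in young leaves).

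BS481_c0_g1_i2 held 75.4% of its gene in the young, 48.6% in the intermediate and 15.1% in the mature stage. It had 35.99, 36.2 and 73.5 TPMTMM in young, 9.77, 8.18 and 25.97 TPMTMM in intermediate and 1.23, 3.69 and 3.92 TPMTMM in mature leaves, with the third library highest in each stage. Its other isoforms summed to 15.6 in the young, 14.2 in the intermediate and 9.22 in the mature stage. BS421_c1_g1_i16 held 66.8% of its gene in the young, 64.4% in the intermediate and 27.2% in the mature stage, and its 4 other isoforms summed to 43.7 in the young, 27.2 in the intermediate and 17.5 in the mature stage. It had 73.7, 75.7 and 117 TPMTMM in young, 47.1, 47.3 and 56.9 TPMTMM in intermediate and 3.70, 11.1 and 9.14 TPMTMM in mature leaves. In both genes, some of the other isoforms were called lower in mature than in young leaves and the rest did not pass the test.

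**Figure D5:**
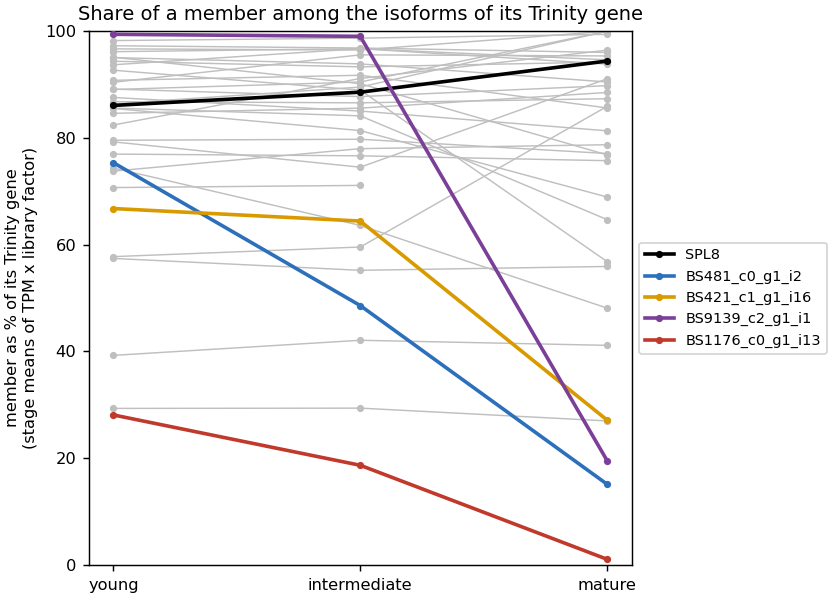
Lines give, for the 35 members with further isoforms, the member as a percentage of its assembled gene at the 3 stages, from stage means of TPM times the library factor. In 20 of the 34 with a mature point, SPL8 among them, the share changes by no more than 10 percentage points (medians over all, 86.1%, 86.6% and 85.8%). The 4 coloured lines drop to between 1.07% and 27.2% in mature leaves, and the gene listed at 0 in mature leaves has no mature point.

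The members not given with the value of every library numbered 85. Their mature means ran between 1.26 and 41.9 TPMTMM and their young means between 21.5 and 186 TPMTMM. No gene name in the sources used here belonged to them.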

How the data were processed

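Leaf RNA of Bienertia sinuspersici was sequenced in 9 libraries, 3 for each of 3 stages, by poly(A)-selected, stranded, paired-end sequencing. The authors used Trimmomatic for trimming, Trinity for assembly without a genome and RSEM for quantification, and then dropped redundant transcripts. No source used here gives a version of Trimmomatic or RSEM. The authors deposited TPM for 36907 unigenes and TPMTMM for 11709 unigenes, and all but 1 of the TPMTMM unigenes followed from the TPM within a relative tolerance of 0.001. No counts were used, so count tests were not run.

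The members and the gene lists were chosen with earlier results of these data known. Limma-trend was fitted to log2(TPMTMM + 1) over 9 libraries, with a term for stage alone (limma 3.58.1, R 4.3.3), with Benjamini-Hochberg adjustment over all unigenes and a threshold of 0.05, and was tested on simulated data. Ratios and sums were computed with Python 3.11.15, pandas 2.3.3 and numpy 2.4.6, and figures with matplotlib 3.10.9. Stages come from the labels. Members given with each library's value are those with a name, the 10 highest, the 6 with the largest fold and the 2 nearest to each limit, and the text says where others were picked once their values were known. Names come from the study's text and a shortened copy of its annotation. Fold changes of the authors in that copy were not used. Isoforms in the TPM table were added after seeing the data. Alternatives were another added value (0.5), a mean of at least 10, no scaling, a replicate block, and each library left out in turn.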

Additional observations from a re-analysis of the deposited data

How the results depend on the processing

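Without scaling between libraries, the median unigene was lower by 0.12 (intermediate against young), 0.43 (mature against intermediate) and 0.57 (mature against young) on the log2 scale. Unigenes called lower by limma then numbered 515 instead of 323 (169 instead of 350 higher) for intermediate against young, 5647 instead of 1858 (772 instead of 1886 higher) for mature against intermediate and 6663 instead of 2801 (1297 instead of 2829 higher) for mature against young leaves. Under it 221 unigenes instead of 109 met the rule, and the related unigenes called lower numbered 18 instead of 7 in the TPMTMM table and 36 instead of 21 for other assembled genes of the component. With a mean of at least 10 TPMTMM, 141 unigenes were called lower for intermediate against young leaves and 4 related unigenes for mature against young leaves. In the table of 36907 unigenes (chosen after seeing the data), 72 of 131 related unigenes were called lower and 191 unigenes met the rule.

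With each library left out in turn, lower calls ran between 53 and 514 for intermediate against young leaves. They were 71, 53 and 88 without young 1, young 2 and young 3, 57, 129 and 99 without intermediate 1, intermediate 2 and intermediate 3, and 514 and 215 without mature 1 and mature 2. Lower calls ran between 1286 and 1937 for mature against intermediate and between 2317 and 2915 for mature against young leaves, between 5 and 8 for related unigenes of the TPMTMM table, between 46 and 50 for isoforms and between 11 and 21 for other assembled genes, and between 87 and 124 unigenes met the rule. The causes were not tested. Deviations of same-numbered libraries correlated with 0.445 to 0.696 for young and intermediate leaves. The correlation was 0.413 to 0.588 for pairs with mature 1 or mature 3, but -0.476 and -0.427 for pairs with mature 2. Unlike numbers also correlated, with 0.508 for young 1 and intermediate 2 and 0.547 for young 2 and intermediate 1. Those of young or intermediate 3 with the other stage's libraries 1 and 2 gave -0.609 to -0.551. The main fit took the numbers as pairs in no comparison. A replicate block over the 9 libraries gave 261, 2031 and 2997 lower calls in the 3 comparisons, 7 related unigenes and, for intermediate against young leaves, 63 members called lower. Among the listed genes in mature against young leaves, the block added calls of NAC002 (higher, limma adjusted p = 0.0226) and FKGP (lower, 0.0275). With no read counts, the precision of low values is unknown, and TPM below 0.5 cannot be told from 0 in TPMTMM.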

Other observations

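The table of all 36907 unigenes held further unigenes with the same course. After multiplication of the TPM by the library factor, 75 unigenes outside the TPMTMM table met the limits, which is 3.84% of the 1952 with a young mean of at least 20. Within the TPMTMM table the members made up 2.18%, but from values rounded and raised by 1, so the shares are not on the same measure. By TPM times the library factor, 116 unigenes of the TPMTMM table met the limits. Of the 75, 6 belonged to the assembled gene of a member and 1 more to the component of a member. The unigenes named here were chosen after their values were seen and have no gene name in the sources used here. BS2221_c0_g1_i1 was the most abundant, with 2281, 2391 and 2999 TPM in young, 1511, 1562 and 1447 TPM in intermediate and 233, 662 and 519 TPM in mature leaves. Mature 1 was its lowest and young 3 its highest library within the stage. BS9157_c3_g1_i1 had 665, 736 and 705 TPM in young and 173, 197 and 88.4 TPM in intermediate leaves and was listed at 0 in all 3 mature libraries. BS134_c0_g1_i2 had 325, 345 and 322 TPM in young, 218, 234 and 159 TPM in intermediate and 0.13, 0.43 and 0.11 TPM in mature leaves. Both were thus among the abundant transcripts of young leaves and close to or at 0 in mature leaves.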
